A study of Bos taurus with 29 samples.

Results

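The genes described here are 68 genes that the study listed for an effect of diet in the arcuate nucleus (ARC) and did not list for the surrounding hypothalamus, followed in that surrounding tissue. They were chosen by the study's own lists: of the 80 genes listed for the ARC, 5 were also listed for the remaining hypothalamus and 7 were left out by name (AGRP, NPY, POMC, CGA, FOXB1, VAX1 and HBD), which left 68 of the 24596 genes of the deposited table. Because genes listed for the diet effect in the remaining hypothalamus were taken out, the choice used the same contrast of diets that is described below, and the diet values of the 68 genes are given as a description, from which no test of the list is drawn. The symbols are those of the study's lists, which pair them with Ensembl identifiers.

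The ARC lies at the base of the hypothalamus beside the median eminence, where circulating hormones and nutrients reach neurons that set appetite and that feed into the reproductive axis. The remaining hypothalamus holds many other nuclei, with magnocellular neurons that make oxytocin and vasopressin, neurons of the lateral hypothalamus that make orexin and melanin-concentrating hormone, and the glia, vessels and meninges around them. The 68 genes span several of these compartments: proteins of synapses and secretory vesicles, ion channels, transcription factors, axon and myelin proteins, vessel and meningeal proteins, and genes driven by interferon, by glucocorticoids and by fasting.

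RNA was measured by RNA-Seq in the remaining hypothalamus, that is the hypothalamus after removal of the ARC, of 29 Angus X Holstein-Friesian heifer calves slaughtered at 21 weeks of age. The 14 HI calves had received a high plane of nutrition, with more milk replacer and with concentrates ad libitum, and the 15 MOD calves a moderate plane, with restricted milk replacer and concentrates. Calves of both groups were offered hay after weaning. Values are TMM-normalised CPM (read counts scaled to library size), and each rests on 11820640 to 17206435 reads per calf. CPM is not corrected for gene length, so that levels are compared between calves and not between genes. In whole tissue, fewer cells of a type and less RNA per cell cannot be told apart.

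5 calves stood apart from the others over the whole transcriptome, with a mean distance to the other calves above 2.41 log2 units where the median calf had 1.98. They were MOD calf 1689 (3.51), HI calf 2120 (3.47), MOD calf 1395 (3.29), MOD calf 2551 (3.13) and HI calf 986 (2.44). Calves 1689, 2120 and 2551 also had the lowest normalisation factors, of 0.795, 0.829 and 0.875, against 0.958 to 1.12 in the other calves. The same 3 calves had the highest levels of POMC, the precursor of melanocortins made in the ARC, at 89.9, 94.7 and 61.7 CPM against at most 35.9 CPM in the 24 calves that did not stand apart. AGRP, which marks the ARC neurons that stimulate feeding, was at 0 in 23 calves and reached 0.153 CPM, so that this ARC marker was nearly absent. Markers of the other nuclei differed widely between calves, with AVP (vasopressin) from 0 to 3472, OXT (oxytocin) from 0 to 1069.7, HCRT (orexin) from 0 to 192, and PMCH (melanin-concentrating hormone) from 0.0670 to 389 CPM. NPY, another peptide of the ARC, ranged from 0.153 to 15.6 CPM. In calves 1689, 2120 and 2551, NPY was at 0.635, 1.86 and 15.6 CPM, against a median of 1.45 CPM, and the value of calf 2551 was the highest of all calves. AGRP was at 0.0794, 0 and 0 CPM in these calves, too few reads to compare calves. Whether ARC tissue was left in these pieces was not tested. The pituitary hormones PRL and CGA reached 46.8 and 5.53 CPM, the acute-phase proteins ORM1 and HP 103 and 43.8 CPM and the globin HBD 3.06 CPM. The diet groups overlapped for these markers, with HI and MOD medians of 0.687 and 3.45 CPM for AVP, 14.96 and 3.44 CPM for PMCH, 14.8 and 7.29 CPM for PRL and 0.823 and 0.153 CPM for HBD, and their part in the diet values below was not tested. Results that rest on the 5 calves are given with and without them.

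The 68 genes were, as a list, variable from calf to calf. A level above 1 CPM in at least 14 calves was reached by 57 of the 68 (83.8%; 56.05% of all genes), and the 11 that did not reach it are described with their groups. Per the paper, listed genes had already passed a filter of this kind in the ARC. That favours a share above that of all genes, so that nothing is read from the 2 shares. Over the 57 genes, the SD of log2(CPM + 1) across the 29 calves had a median of 0.895, against 0.427 over the 13785 genes tested. 32 of the 57 genes had an SD above the 90th percentile of all genes tested, and 2, MSX1 and ENTR1, had one below the 50th. The largest SDs were those of HLA-DQA1 (2.39), CBLN2 (1.57), GABRB2 (1.50), RPL12 (1.48), GADL1 (1.47) and RAB3C (1.42). The coefficient of biological variation, estimated from the recovered reads, was above the trend for genes of the same abundance in 51 of the 57 genes and in 33.3% of all genes tested. The study listed genes with a fold change over 1.5 in the ARC of the same calves. Such a cut-off can favour genes that vary between calves, so that the spread of the list is given as a description. One of the 5 calves that stood apart held the highest or the lowest level of 50 of the 57 genes, with the lowest level in MOD calf 1395 for 16 genes and the highest in HI calf 2120 for 10. The 5 calves were picked for their distance over the whole transcriptome, which favours such extremes. The share over all genes tested was not counted, so that nothing particular to the list is read from these counts.

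**Figure D1:**
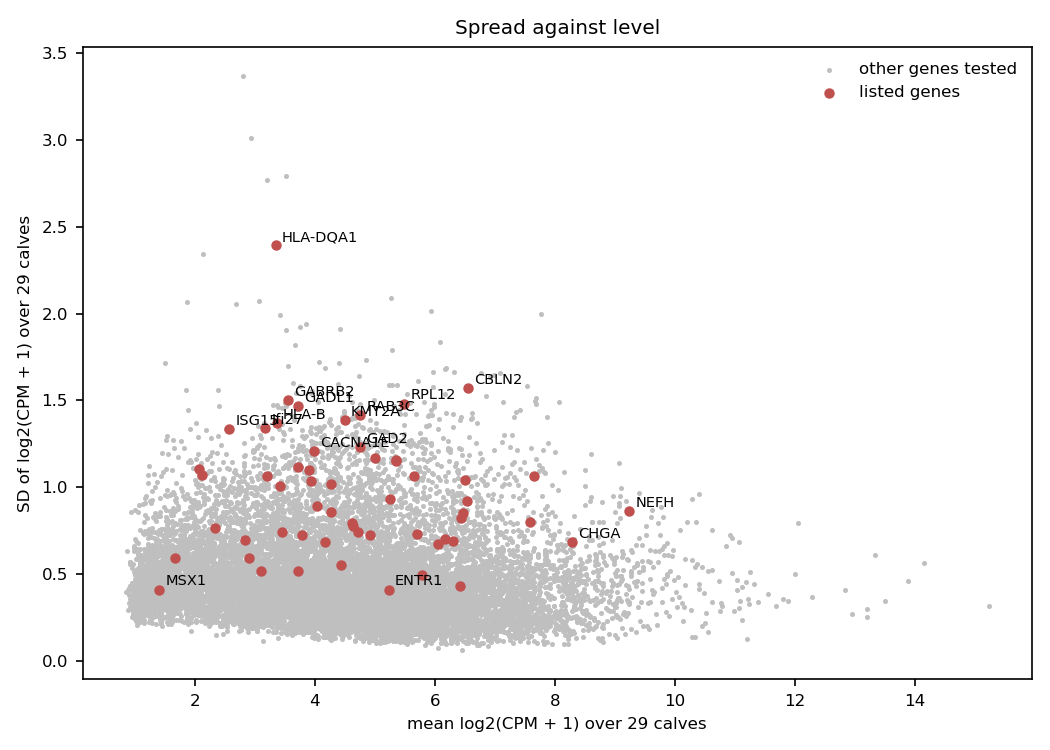
Spread against level for the 13785 genes tested (grey points) and the 57 listed genes that passed the filter (red points), with the mean of log2(CPM + 1) over 29 calves on the x axis and its SD on the y axis. The listed genes lie mostly in the upper part of the cloud at all levels, with a median SD of 0.895 against 0.427 for all genes tested, and HLA-DQA1 is highest among them.

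FKBP5, PDK4 and ARRDC2 respond to glucocorticoids or to fasting, and all 3 had a lower mean in HI than in MOD calves, with large overlap. FKBP5, a co-chaperone of the glucocorticoid receptor that the receptor itself induces, ranged from 8.73 to 119 CPM in HI calves (median 36.4) and from 8.33 to 107 CPM in MOD calves (median 46.7). PDK4, the kinase that shuts off pyruvate dehydrogenase and spares glucose when food is short, had a median of 26.8 CPM in HI calves (lowest 11.2, highest 59.3) and 36.3 CPM in MOD calves (lowest 12.4, highest 87.8). ARRDC2, an arrestin-domain protein induced by glucocorticoids, lay between 9.68 and 54.9 CPM in HI calves (median 13.3) and between 7.72 and 55.5 CPM in MOD calves (median 25.9). High and low calves occurred on both diets for each of the 3 genes: the highest FKBP5 level was that of HI calf 1089 (119 CPM), the highest PDK4 level that of MOD calf 911 (87.8 CPM), and the highest ARRDC2 level that of MOD calf 3622 (55.5 CPM). The log2 fold change of HI over MOD was -0.25 (SE 0.42) for FKBP5, -0.28 (SE 0.26) for PDK4 and -0.50 (SE 0.30) for ARRDC2, and -0.42, -0.38 and -0.63 without the 5 calves that stood apart. Of the 14 HI calves, 5 exceeded the median of the MOD group for FKBP5, 4 for PDK4 and 2 for ARRDC2.

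Of the 4 interferon response genes, ISG15, MX1 and Ifi27 had their highest levels in few calves of both diets, and IFI27L2 was more even. ISG15, a ubiquitin-like protein attached to other proteins during antiviral responses, ranged from 0.875 to 43.8 CPM in HI calves (median 2.87) and from 1.53 to 49.1 CPM in MOD calves (median 3.73). MX1, a GTPase that blocks virus replication, had a median of 24.6 CPM in HI calves (lowest 9.64, highest 137) and 31.8 CPM in MOD calves (lowest 15.5, highest 154). Calves with the most ISG15 were among those with the most MX1: MOD calf 2551 had 49.1 and 154 CPM, HI calf 2120 43.8 and 137 CPM, MOD calf 975 29.3 and 120.1 CPM and HI calf 3148 17.3 and 137 CPM. Calves 975 and 3148 did not stand apart over the transcriptome. Ifi27, an interferon-inducible protein of mitochondrial and nuclear membranes, lay between 1.88 and 89.9 CPM in HI calves (median 7.07) and between 0.917 and 48.7 CPM in MOD calves (median 8.10), with 22.9% of its summed level in HI calf 2120. IFI27L2, a relative of Ifi27, ranged from 1.36 to 82.7 CPM in HI calves (median 17.8) and from 1.38 to 32.5 CPM in MOD calves (median 15.6), with its highest level again in HI calf 2120 and its lowest, 1.36 and 1.38 CPM, in HI calf 2535 and MOD calf 1690, where the next lowest calf had 5.93 CPM. The 2 genes are next to each other in the RefSeq annotation (assembly ARS-UCD2.0) and belong to a family of similar sequences, so that the division of reads between them is uncertain. The log2 fold changes were -0.42 (SE 0.48) for ISG15, -0.34 (SE 0.42) for MX1, -0.10 (SE 0.48) for Ifi27 and 0.27 (SE 0.37) for IFI27L2, and -0.52, -0.47, -0.15 and 0.13 without the 5 calves that stood apart.

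The 4 antigen presentation genes had uneven levels, and 2 of them were undetected in most calves. HLA-DQA1, the alpha chain of a class II molecule that presents peptides to helper T cells, ranged from 0 to 73.9 CPM in HI calves (median 29.8) and from 0 to 122 CPM in MOD calves (median 6.39). It was under 1 CPM in 8 calves (4 HI, 4 MOD), above 10 CPM in 15 (8 HI, 7 MOD) and between these values in 6. HLA-DQA2, a second alpha chain, had no read in 17 calves (10 HI, 7 MOD) and 20 to 111 reads in the other 12, with nothing in between. HLA-DQB1, a beta chain that pairs with the alpha chains, had no read in 19 calves and 2 to 124 reads in 10, and all 10 of these had HLA-DQA2 reads. A count of 0 allows up to 0.174 to 0.254 CPM at the depth of these libraries (3 reads, counting error only). HLA-DQA1 was high in some and nearly absent in other calves whether or not HLA-DQA2 was detected: its median was 4.22 CPM in the 12 calves with HLA-DQA2 reads (lowest 0, highest 66.6) and 31.4 CPM in the 17 calves without (lowest 0, highest 122), and 5 of the 8 calves with under 1 CPM of HLA-DQA1 had HLA-DQA2 reads. HLA-B, a class I chain, had a median of 12.9 CPM in HI calves (lowest 0.653, highest 50.8) and 10.5 CPM in MOD calves (lowest 0.153, highest 34.8), with the lowest level in MOD calf 1690 and the highest in HI calf 2120. Class I and class II genes are families of near-identical and highly polymorphic copies, so that these levels depend on how reads of an animal's own copies were placed on the reference and are uncertain. The log2 fold change was 0.22 (SE 0.86) for HLA-DQA1, 0.27 (SE 0.49) for HLA-B and, in the fit of 19525 genes with at least 1 read, -0.46 (SE 0.41) for HLA-DQA2 and -0.45 (SE 0.29) for HLA-DQB1.

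**Figure D2:**
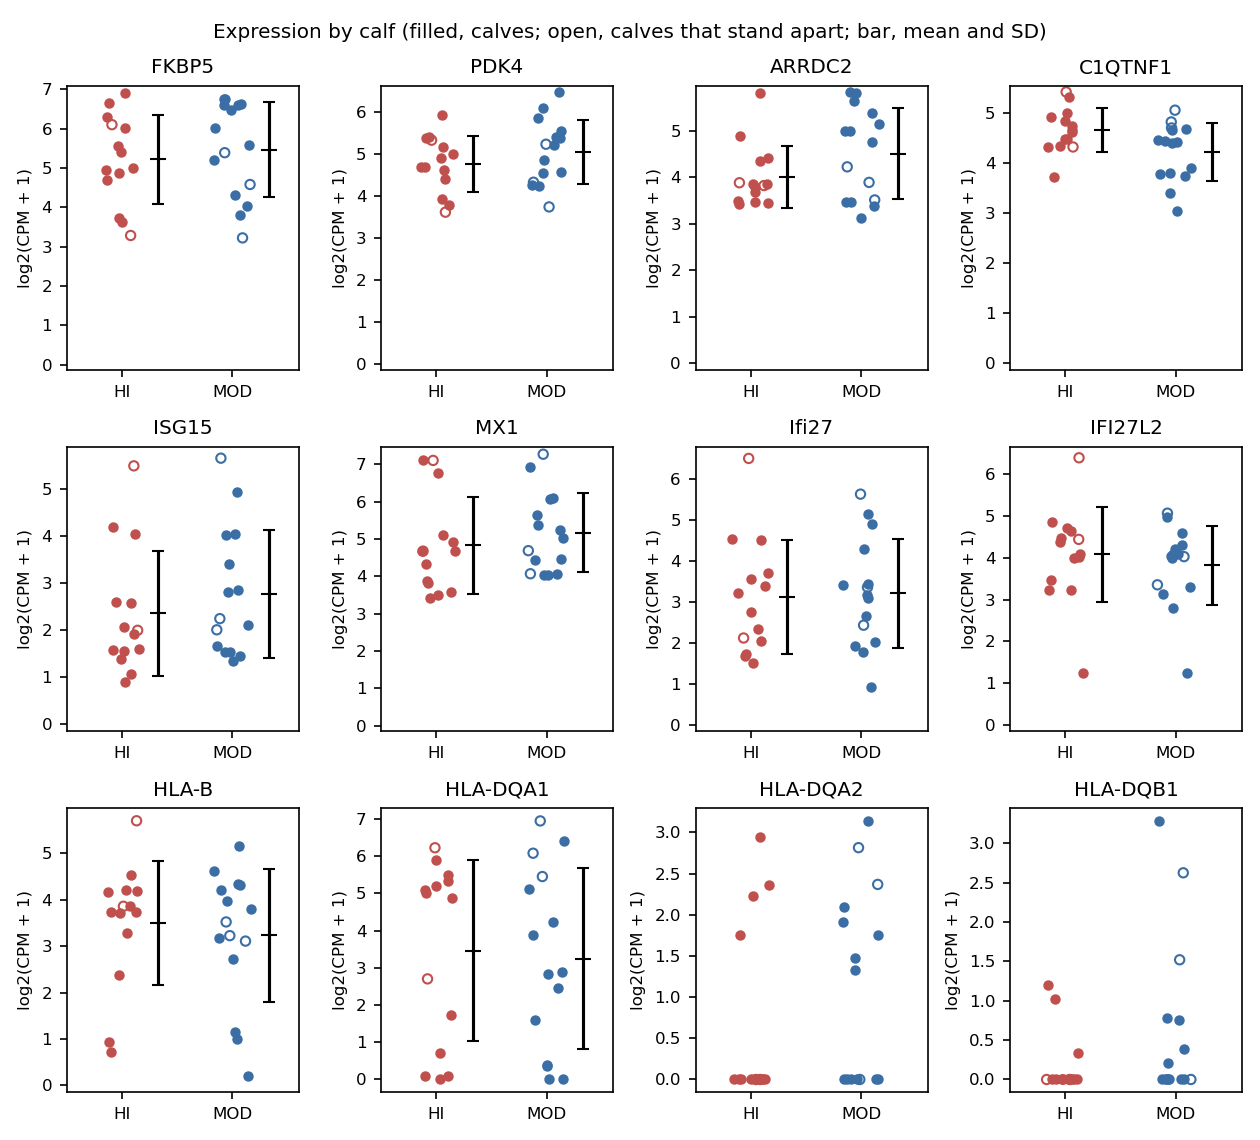
Levels of 12 genes as log2(CPM + 1) in the 14 HI (red) and 15 MOD (blue) calves, with open circles for the 5 calves that stood apart and bars for the mean and SD of a diet group (left out for HLA-DQA2 and HLA-DQB1, which many calves lacked). HI and MOD calves overlap in every panel, HLA-DQA2 falls into calves at 0 and calves above it, and the highest ISG15 and MX1 values of the MOD group are those of 1 open circle.

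Synapse and secretion genes were the largest group, with 17 genes, of which 16 passed the filter. Of these 16, 13 had a log2 fold change above 0 and 3 below 0, with a median of 0.39, which was 0.14 without the 5 calves that stood apart. The GABAergic genes were lowest in the same few calves. GAD2, which makes the inhibitory transmitter GABA, ranged from 3.16 to 176 CPM in HI calves (median 38.4) and from 2.14 to 72.3 CPM in MOD calves (median 27.5). GABRB2, a subunit of the GABA-A receptor, lay between 0.372 and 41.1 CPM in HI calves (median 18.2) and between 0.159 and 29.2 CPM in MOD calves (median 15.7). MOD calves 1689 and 2551 and HI calf 2120 had 0.159, 0.287 and 0.372 CPM of GABRB2, the lowest values, and the next lowest, in HI calf 2570, was 1.78 CPM. The highest GAD2 level, in HI calf 553, was 17.2% of the sum over calves. RAB3C, a GTPase of synaptic vesicles, had a median of 42.2 CPM in HI calves (lowest 3.63, highest 97.6) and 25.96 CPM in MOD calves (lowest 2.28, highest 85.4), and UNC13C, which primes vesicles for release, ranged from 7.25 to 53.5 CPM in HI calves (median 22.04) and from 1.27 to 28.7 CPM in MOD calves (median 16.4). MYRIP, which links vesicles to myosin, lay between 3.16 and 43.1 CPM in HI calves (median 22.8) and between 0.874 and 33.4 CPM in MOD calves (median 22.4). The glutamate receptor subunit GRIK3 and ARFGEF3, a regulator of secretory granules, had all their levels within 0.318 to 36.2 CPM, again lowest in MOD calf 1689. Without the 5 calves, the log2 fold change went from 0.38 to 0.03 for GABRB2, from 0.45 to 0.07 for RAB3C, from 0.49 to 0.30 for GAD2, from 0.35 to 0.12 for MYRIP, from 0.39 to 0.16 for ARFGEF3 and from 0.23 to -0.07 for GRIK3, while that of UNC13C went from 0.51 to 0.45.

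Several other synaptic genes were lowest in MOD calf 1395, as were RAB3C (2.28 CPM) and UNC13C (1.27 CPM) above. SV2B, a glycoprotein of synaptic vesicles, ranged from 101 to 419 CPM in HI calves (median 263) and from 16.02 to 398 CPM in MOD calves (median 276), with the lowest value in MOD calf 1395. CPNE9, a copine that binds membranes in response to calcium, had a median of 137 CPM in HI calves (lowest 31.1, highest 162) and 95.3 CPM in MOD calves (lowest 15.9, highest 213). CBLN2, a cerebellin that organises synapses, lay between 13.1 and 422 CPM in HI calves (median 123) and between 2.01 and 323 CPM in MOD calves (median 76.4), so that MOD calf 1395 was far below the next lowest calf, HI calf 986 with 13.1 CPM. Of the 14 HI calves, 12 exceeded the median of the MOD group for CBLN2, 9 for CPNE9 and 5 for SV2B. LYNX1, which modulates nicotinic acetylcholine receptors, ranged from 32.7 to 103 CPM in HI calves (median 63.5) and from 2.61 to 113 CPM in MOD calves (median 52.4). HPCA (hippocalcin), a neuronal calcium sensor, lay between 23.2 and 171 CPM in HI calves (median 108) and between 15.2 and 204 CPM in MOD calves (median 84.7). SYNDIG1L, a membrane protein related to a regulator of excitatory synapses, lay within 8.91 to 105 CPM, and MOD calf 1395 was lowest for all of CBLN2, CPNE9, SV2B, LYNX1, HPCA and SYNDIG1L. The log2 fold change was 0.74 (SE 0.55) for CBLN2, 0.53 (SE 0.37) for LYNX1, 0.51 (SE 0.31) for UNC13C and 0.51 (SE 0.36) for CPNE9, and leaving out 1 calf at a time moved that of CBLN2 between 0.41 and 0.98. SV2B, HPCA and SYNDIG1L had 0.48 (SE 0.37), 0.34 (SE 0.29) and 0.13 (SE 0.26).

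CHGA and CARTPT, genes of neuropeptide secretion, were also lowest in MOD calf 1395, whereas C1QL3 was lowest in HI calf 2528. CHGA (chromogranin A), which packs hormones into dense-core granules, had a median of 298 CPM in HI calves (lowest 188, highest 682) and 315 CPM in MOD calves (lowest 59.7, highest 946). Its highest levels were in MOD calves 1689 (946 CPM) and 2551 (723 CPM) and HI calf 2120 (682 CPM), the calves with the most POMC, and the highest of the other calves was 407 CPM. Whether neuroendocrine tissue differed between these pieces was not tested. CARTPT, the precursor of a peptide that reduces feeding, ranged from 0.411 to 9.95 CPM in HI calves (median 2.70) and from 0.134 to 17.7 CPM in MOD calves (median 4.69), and 3 of the 14 HI calves exceeded the median of the MOD group. C1QL3, a secreted C1q-like protein that organises synapses, lay between 0.228 and 14.9 CPM in HI calves (median 3.69) and between 0.335 and 17.5 CPM in MOD calves (median 2.80). Log2 fold changes were -0.09 (SE 0.25), -0.46 (SE 0.38) and -0.11 (SE 0.40), respectively. SYTL5, a synaptotagmin-like Rab effector, stayed under 1 CPM in all calves, with a highest level of 0.892 CPM and a log2 fold change of -0.02 (SE 0.10) in the fit of 19525 genes.

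Of the 4 voltage-gated channel genes, CACNA1E alone passed the filter. CACNA1E, the pore of the R-type calcium channel, ranged from 1.67 to 33.4 CPM in HI calves (median 20.8) and from 1.51 to 39.7 CPM in MOD calves (median 17.2), with a log2 fold change of 0.24 (SE 0.43) that was -0.05 without the 5 calves. The sodium channel SCN11A ranged within 0.0929 to 1.51 CPM. SCN7A, an atypical sodium channel that senses extracellular sodium, had a median of 0.768 CPM on the HI and 1.23 CPM on the MOD diet, with 28.5% of its summed level in MOD calf 1395 (16.4 CPM). SCN11A and SCN7A had log2 fold changes of 0.19 (SE 0.10) and -0.38 (SE 0.32) in the fit of 19525 genes.

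The 6 transcription regulators differed in which calves carried them. ZIC1, a zinc-finger factor of the developing brain that marks particular neurons, ranged from 5.67 to 89.1 CPM in HI calves (median 57.6) and from 5.43 to 94.00 CPM in MOD calves (median 57.8). KMT2A, a histone methyltransferase, lay within 0.238 to 65.2 CPM, and MOD calf 1689 had 0.238 CPM where the 24 calves that did not stand apart had at least 5.83 CPM. EGR1, an immediate early gene induced by neuronal activity, had a median of 16.3 CPM on the HI and 19.6 CPM on the MOD diet and a log2 fold change of -0.30 (SE 0.25). MSX1, a homeobox factor, lay between 0.842 and 3.84 CPM in HI calves (median 1.76) and between 0.958 and 3.62 CPM in MOD calves (median 1.21), and NKX2-8, another homeobox factor, lay within 1.33 to 14.6 CPM. LHX6, a factor of GABAergic neurons, did not pass the filter: 2 MOD calves, 2532 with 11.2 and 911 with 8.48 CPM, were far above the others, whose highest level was 2.41 CPM. The log2 fold change was 0.40 (SE 0.41) for ZIC1, 0.42 (SE 0.49) for KMT2A, 0.38 (SE 0.27) for NKX2-8, 0.15 (SE 0.15) for MSX1 and -0.48 (SE 0.30) for LHX6 (fit of 19525 genes).

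Axon and myelin genes were measured with many reads. NEFH, the heavy subunit of neurofilaments in large axons, ranged from 444 to 1204 CPM in HI calves (median 699) and from 115 to 1434 CPM in MOD calves (median 569), with the lowest levels in MOD calves 1395 (115 CPM), 2532 (154 CPM) and 911 (207 CPM). KLK6, a protease of oligodendrocytes, had a median of 101 CPM in HI calves (lowest 46.1, highest 217) and 103 CPM in MOD calves (lowest 13.1, highest 203). PPP1R14A, an inhibitor of myosin phosphatase, lay between 102 and 598 CPM in HI calves (median 187) and between 74.9 and 719 CPM in MOD calves (median 141). NEFH and KLK6 did not share their lowest calf, and the diets overlapped for all 3 genes. Their log2 fold changes were 0.44 (SE 0.30), 0.23 (SE 0.33) and 0.06 (SE 0.29).

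Vessel, barrier and extracellular genes had levels that overlapped between diets. C1QTNF1, a secreted C1q and tumour necrosis factor related protein, ranged from 12.3 to 42.1 CPM in HI calves (median 23.96) and from 7.26 to 32.5 CPM in MOD calves (median 20.5), and 10 of the 14 HI calves exceeded the median of the MOD group. Its log2 fold change was 0.44 (SE 0.19), 0.56 without the 5 calves and 0.35 to 0.51 with 1 calf left out at a time. CRTAC1, a secreted protein of cartilage and brain, had a median of 16.4 CPM in HI calves (lowest 7.63, highest 70.6) and 32.4 CPM in MOD calves (lowest 8.11, highest 53.01), and its log2 fold change was -0.51 (SE 0.27), the lowest of the 57 genes. CLDN5, the tight junction protein of the blood-brain barrier, lay between 39.5 and 254 CPM in HI calves (median 68.2) and between 40.2 and 260.0 CPM in MOD calves (median 57.98), with 260.0, 254 and 182 CPM in calves 1689, 2120 and 2551 and at most 121 CPM in the others. VCAM1, an adhesion molecule of activated endothelium, ranged from 2.67 to 14.9 CPM in HI calves (median 6.99) and from 1.22 to 13.7 CPM in MOD calves (median 5.40). MSLN (mesothelin), a surface protein of lining cells, had a median of 84.97 CPM in HI calves (lowest 33.3, highest 169.6) and 66.3 CPM in MOD calves (lowest 33.5, highest 214), and ANGPTL7, a secreted angiopoietin-like protein, lay between 7.41 and 26.6 CPM in HI calves (median 14.9) and between 4.74 and 37.1 CPM in MOD calves (median 9.17). These last 4 genes had log2 fold changes of -0.01 (SE 0.25), 0.27 (SE 0.25), 0.18 (SE 0.25) and 0.37 (SE 0.26). C1QTNF5, a relative of C1QTNF1, and CDH23, a cadherin, had levels of 6.85 to 94.3 and 1.67 to 26.03 CPM and log2 fold changes of 0.18 (SE 0.28) and 0.13 (SE 0.22). ALDH1A2, which makes retinoic acid and is found in the meninges, did not pass the filter and ranged from 0.148 to 1.96 CPM in HI calves (median 0.819) and from 0.154 to 2.35 CPM in MOD calves (median 0.563). CPAMD8, a protein of the alpha-2-macroglobulin family, did not pass it either, and 26.7% of its summed level was in MOD calf 1057 (8.24 CPM). Their log2 fold changes were 0.11 (SE 0.14) and -0.41 (SE 0.28) in the fit of 19525 genes.

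Among the 11 enzyme, trafficking and signalling genes, GADL1 had the largest diet difference of all 57 genes. GADL1, a decarboxylase of acidic amino acids, ranged from 0.536 to 38.9 CPM in HI calves (median 21.4) and from 0.892 to 55.9 CPM in MOD calves (median 8.08). 13 of the 14 HI calves exceeded the median of the MOD group, but the highest level was that of MOD calf 1690 and the lowest that of HI calf 986. The log2 fold change was 0.91 (SE 0.50), and 1.04 without the 5 calves that stood apart. PKIB, an inhibitor of protein kinase A, had a median of 49.99 CPM in HI calves (lowest 14.5, highest 78.2) and 37.6 CPM in MOD calves (lowest 4.42, highest 91.5), with a log2 fold change of 0.38 (SE 0.33). FAM173A, a mitochondrial lysine methyltransferase, lay between 47.2 and 252 CPM in HI calves (median 54.8) and between 43.5 and 215 CPM in MOD calves (median 55.9), with 252, 215 and 185 CPM in calves 2120, 1689 and 2551. The medians of FAM173A in the diet groups were close, and its log2 fold change was -0.07 (SE 0.25). ISOC2, a less studied protein, was also highest in these calves, with 118 CPM in calf 2120. TMEM205, another less studied protein, was highest in calves 1689 (37.7 CPM) and 2120 (33.6 CPM). In calf 2551 it was at 14.4 CPM, below HI calf 2570 with 19.0 CPM. The log2 fold changes of ISOC2 and TMEM205 were 0.12 (SE 0.27) and 0.24 (SE 0.19). The motor protein MYO5B had levels of 0.871 to 36.8 CPM, the glycosyltransferase EXTL1 28.8 to 114 CPM, the endosomal protein ENTR1 21.2 to 70.1 CPM, the guanine nucleotide exchange factor ARHGEF16 3.22 to 17.3 CPM and the serine protease TMPRSS9 1.92 to 39.99 CPM. In the same order, these genes had log2 fold changes of 0.12 (SE 0.36), 0.02 (SE 0.18), 0.12 (SE 0.15), 0.19 (SE 0.19) and 0.36 (SE 0.39). RIPK4, a kinase of epithelia, did not exceed 0.766 CPM and did not pass the filter, with a log2 fold change of -0.01 (SE 0.08) in the fit of 19525 genes.

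Both ribosomal protein genes had higher means in HI calves and a wide spread. RPL12, of the large subunit, ranged from 2.20 to 232 CPM in HI calves (median 70.4) and from 3.29 to 207 CPM in MOD calves (median 41.9). 4 calves, HI 1360 (2.20 CPM), MOD 981 (3.29 CPM), MOD 1395 (4.16 CPM) and MOD 2551 (11.2 CPM), lay well below the next lowest calf, MOD 991 with 28.1 CPM. RPS23, of the small subunit, had a median of 94.8 CPM in HI calves (lowest 51.4, highest 289) and 79.96 CPM in MOD calves (lowest 20.01, highest 242). The 2 subunit genes differed in which calves were low, and ribosomal protein genes have many processed copies in the genome, so that their read counts are uncertain. Log2 fold changes were 0.59 (SE 0.52) for RPL12 and 0.33 (SE 0.30) for RPS23, and 0.28 and 0.24 without the 5 calves.

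Of the 4 genes best known from muscle, 3 passed the filter. PYGM, the muscle form of glycogen phosphorylase, which is also found in astrocytes, ranged from 52.1 to 135 CPM in HI calves (median 87.8) and from 48.2 to 154 CPM in MOD calves (median 77.1), with a log2 fold change of 0.18 (SE 0.16) that was 0.37 without the 5 calves. ACTN2, a sarcomeric alpha-actinin, lay between 0.650 and 6.77 CPM in HI calves (median 2.30) and between 0.536 and 6.12 CPM in MOD calves (median 2.14). HHATL, a membrane protein related to an acyltransferase, lay within 2.37 to 32.7 CPM, and MYL2, the regulatory light chain of heart myosin, which did not pass the filter, within 0 to 2.94 CPM. The log2 fold changes were -0.01 (SE 0.22) for ACTN2, -0.04 (SE 0.27) for HHATL and -0.25 (SE 0.16) for MYL2.

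Between diets, 0% of the 13785 genes tested passed the threshold (limma on log2(CPM + 1), Benjamini-Hochberg adjusted p under 0.10 and fold change over 1.5), and 1.30% had an unadjusted p under 0.05, which was 5.08% without the 5 calves that stood apart and 12.6% when calves were weighted by library quality (limma-voom). On recovered reads, the exact test of edgeR called 1 gene, its quasi-likelihood test 0 and DESeq2 2. None of these calls was among the 57 genes. By the exact test of edgeR, with its own filter of low genes, the study listed 39 genes for this tissue. The cause of the difference from the 1 gene called here was not tested. Almost no gene was called here over all genes tested, and genes listed by the study for this contrast in these calves had been taken out of the list. Nothing is therefore read from this count. Log2 fold changes were above 0 in 42 and below 0 in 15 of the 57, with 57.1% of all genes tested above 0, and ran from -0.51 to 0.91. The median was 0.23 over the list and 0.0244 over all genes, and the median size was 0.28 against 0.0925. With the exact test of edgeR on recovered reads, 40 of the 57 and 46.7% of all genes were above 0. The listed genes spread more between calves (median SD 0.895 against 0.427), which by itself favours larger log2 fold changes. Many of them also share the calves that set their level, so that their signs are not separate observations. Nothing about an effect of diet on the list is read from these values. The HI and MOD ranges overlapped for all 68 genes, but overlap was not counted over all genes, so that nothing about the list is read from it. The 95% interval of a log2 fold change reached a median of 0.63 to either side.

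The sign of the log2 fold change without the 5 calves was that with all calves for 50 of the 57 genes, and 43 kept their sign whichever single calf was left out. FKBP5, PDK4 and ARRDC2 had a log2 fold change below 0 under each of the 9 other fits and with each calf left out, all of which share most of their calves.

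**Figure D3:**
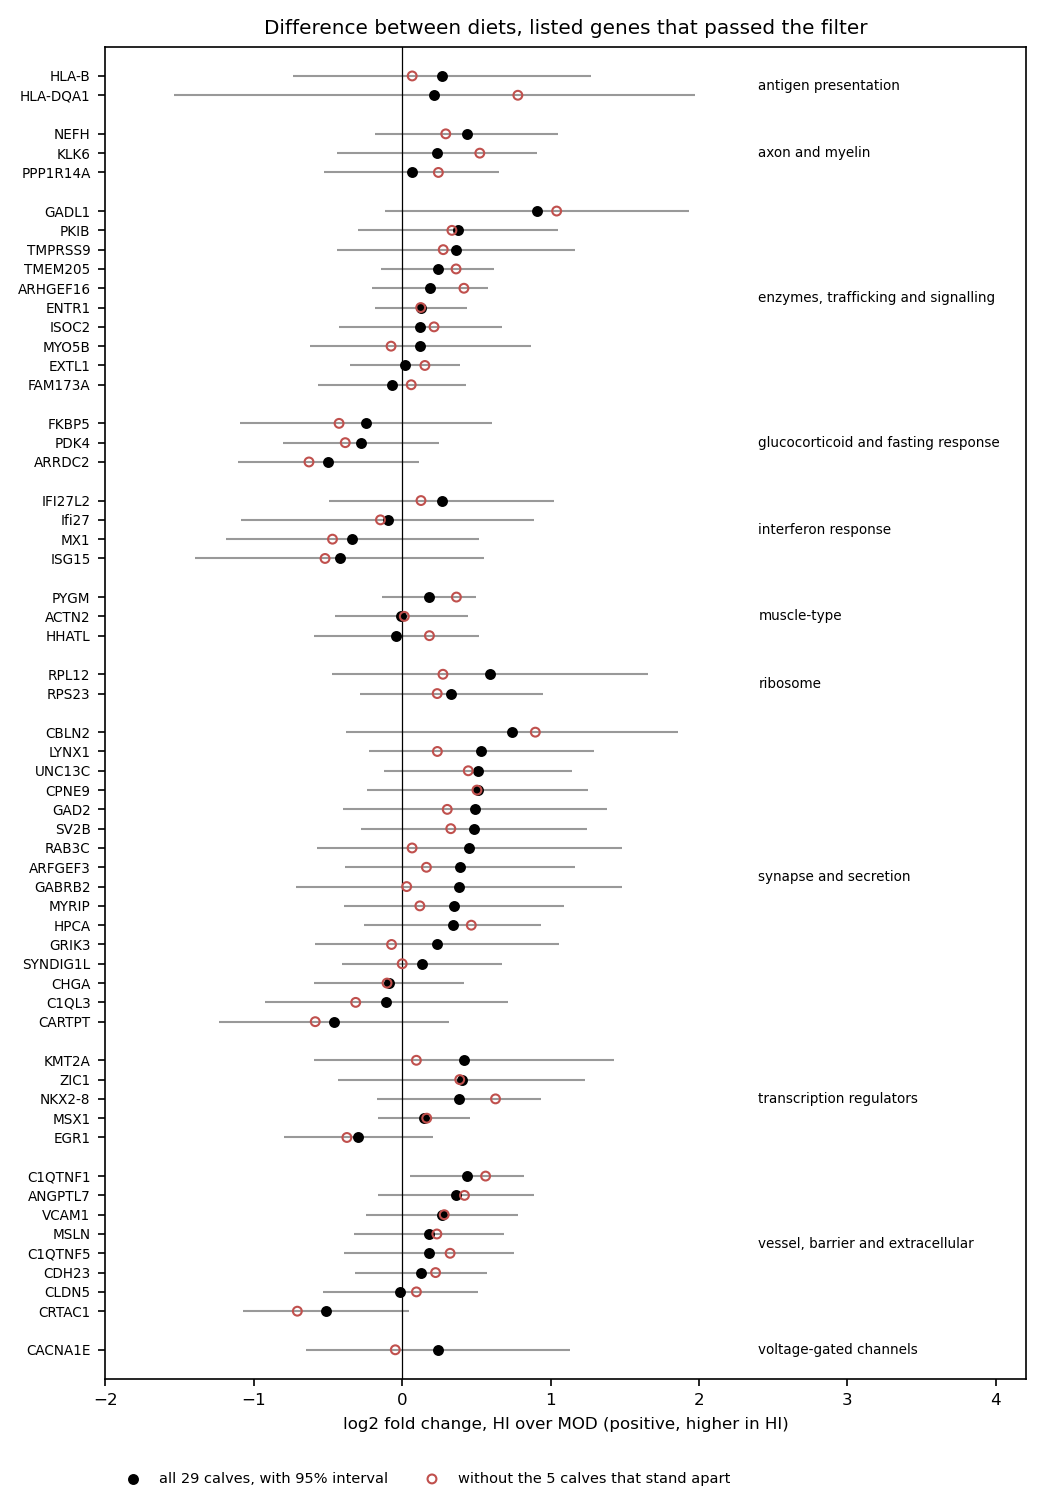
Log2 fold change of HI over MOD on the x axis for the 57 listed genes that passed the filter, by group on the y axis, with all 29 calves (black points, with the 95% interval as a line) and without the 5 calves that stood apart (open red circles). GADL1 has the largest value at 0.91, and several synaptic genes such as RAB3C and GABRB2 move toward 0 without the 5 calves.

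Correlations across the 29 calves were computed for 18 pairs of related genes, on log2(CPM + 1), with two-sided permutation tests adjusted over the 18 pairs by Benjamini-Hochberg. The values of a pair come from the same libraries and share their depth and normalisation. By Pearson's r, 8 of the 18 pairs passed an adjusted p of 0.05, all with a positive correlation, and by Spearman's rho the same 8 and a ninth, RPS23 and RPL12. The interferon pair ISG15 and MX1 had r = 0.94 and rho = 0.89 (permutation p = 1e-05, the smallest that 100000 permutations can give, adjusted p = 3e-05), and r was 0.92 without the 2 calves at the greatest distance from the median of ISG15 and 0.93 without the 5 calves that stood apart. ISG15 and Ifi27 had r = 0.91 and rho = 0.89 (permutation p = 1e-05 for both, adjusted p = 3e-05 and 4.5e-05), with r = 0.86 without the 2 farthest calves. Within diets r was 0.93 in HI and 0.95 in MOD calves for ISG15 and MX1, and 0.93 and 0.90 for ISG15 and Ifi27. Ifi27 and its neighbour IFI27L2 had r = 0.52 and rho = 0.43 (permutation p = 0.0035 and 0.022, adjusted p = 0.009 and 0.044), which no longer passed without the 2 farthest calves (r = 0.33, adjusted permutation p = 0.17) or without the 5 that stood apart (r = 0.37). The call therefore rests on those calves, while r was 0.57 in HI and 0.50 in MOD calves.

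The glucocorticoid and fasting genes moved together on both diets. FKBP5 and PDK4 had r = 0.87 and rho = 0.87 (permutation p = 1e-05 for both, adjusted p = 3e-05 and 4.5e-05), with r = 0.96 in HI and 0.81 in MOD calves. FKBP5 and ARRDC2 had r = 0.77 and rho = 0.76 (permutation p = 1e-05 and 2e-05, adjusted p = 3e-05 and 7.2e-05), with r = 0.68 in HI and 0.85 in MOD calves. After removal of the 2 calves at the greatest distance from the median of FKBP5, r was 0.84 and 0.83, and without the 5 calves that stood apart 0.87 and 0.84. Calves that were low for FKBP5 were thus low for PDK4 as well, such as HI 2120, MOD 2551, HI 2570 and HI 3148, which were the 4 lowest for both genes.

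HLA-DQA2 and HLA-DQB1 are the eighth pair, but the calves fall into those with and those without HLA-DQA2 reads, so that no pooled r is given, although the pair is counted among the 8 by the pooled test. In a test chosen after the values were seen, within the 12 calves with HLA-DQA2 reads, r was 0.79 (permutation p = 0.0019) and rho 0.76 (permutation p = 0.0057), with r = 0.78 without the 2 farthest calves. HLA-DQA1 followed neither HLA-DQB1 (r = 0.05, rho = 0.01, adjusted permutation p = 0.89) nor HLA-B (r = 0.15, rho = 0.05, adjusted permutation p = 0.55) past the threshold. GAD2 and GABRB2 had r = 0.79 but rho = 0.46 (permutation p = 1e-05 and 0.013, adjusted p = 3e-05 and 0.034), and r was 0.67 without the 2 farthest calves and 0.55 without the 5 that stood apart. SV2B and RAB3C had r = 0.50 and rho = 0.56 (permutation p = 0.0054 and 0.0018, adjusted p = 0.012 and 0.0055). After removal of the 2 calves at the greatest distance from the median of SV2B this r was 0.36 (adjusted permutation p = 0.13), and without the 5 calves that stood apart it was 0.44 (adjusted permutation p = 0.057), so that the call, but not the sign, rests on those calves.

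RPS23 and RPL12 passed by rank and not by r, with rho = 0.45 (permutation p = 0.016, adjusted p = 0.036) and r = 0.36 (permutation p = 0.056, adjusted p = 0.1). The other 7 pairs passed by neither, with r = 0.37 for CLDN5 and VCAM1, 0.31 for NEFH and KLK6, 0.18 for CHGA and CARTPT, 0.13 for CBLN2 and C1QL3, 0.04 for MSLN and ALDH1A2, -0.03 for MYL2 and ACTN2 and -0.20 for LHX6 and ZIC1 (adjusted permutation p from 0.09 to 0.89). NEFH and KLK6 had r = 0.60 without the 5 calves that stood apart (adjusted permutation p = 0.0075), and then LHX6 and ZIC1 (r = -0.51, adjusted permutation p = 0.037) and CHGA and CARTPT (r = -0.46, adjusted permutation p = 0.049) passed as well. LHX6 did not pass the filter and was far higher in MOD calves 2532 and 911. Without these 2 calves, its r with ZIC1 was 0.22, so that the negative r rests on them. The library files carried 5 name prefixes whose meaning was not given, each with calves of both diets, and with prefix means removed all 18 pairs stayed on their side of the threshold. Within the prefixes that held 6 calves, r ran from 0.67 to 0.99 for ISG15 and MX1, from 0.88 to 0.95 for ISG15 and Ifi27, from 0.44 to 0.98 for FKBP5 and PDK4, from 0.65 to 0.93 for FKBP5 and ARRDC2, from 0.09 to 0.73 for SV2B and RAB3C, from 0.17 to 0.93 for Ifi27 and IFI27L2 and from -0.26 to 0.97 for GAD2 and GABRB2, which was positive in 3 of 4 such prefixes. Prefix took a median of 11.4% of the variance of the 57 genes and 9.75% of that of all genes tested.

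Beyond the fixed pairs, the 57 genes were grouped by their correlations after removal of the diet means (average linkage, mean r of at least 0.5, blocks of 3 or more genes). The blocks were found from these values and are described without a test. 46 genes fell into 6 blocks and 11 into none (ACTN2, C1QL3, CARTPT, CDH23, CRTAC1, HLA-B, HLA-DQA1, IFI27L2, RPL12, TMPRSS9 and UNC13C). Over all 1596 pairs the median r was 0.0574, 84 pairs were above 0.7 and 50 below -0.7.

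Block 1 held 14 genes, of several groups: CBLN2, CHGA, CPNE9, EXTL1, GADL1, HHATL, HPCA, LYNX1, MYO5B, NEFH, PKIB, SV2B, SYNDIG1L and ZIC1, with a mean r of 0.60 (0.55 without the 5 calves). CPNE9, SV2B and PKIB had the highest mean r to the rest of it. As a whole it was lowest in MOD calf 1395, HI calf 986 and MOD calf 2532. Block 3 held ARFGEF3, CACNA1E, EGR1, GABRB2, GAD2, GRIK3, KMT2A, MYRIP and RAB3C, with a mean r of 0.79 (0.66 without the 5 calves), led by GABRB2, CACNA1E and MYRIP. Its lowest calves were others: MOD 1689, HI 2120 and MOD 2551. Between the genes of blocks 1 and 3 the mean r was 0.0728, with 53 of 126 correlations below 0. Within block 3, GABRB2 and RAB3C had r = 0.94, and 0.94 without the 5 calves.

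Block 2 joined the interferon genes ISG15, MX1 and Ifi27 with CLDN5, FAM173A, PPP1R14A, C1QTNF5, ISOC2, TMEM205, NKX2-8, MSLN and RPS23, with a mean r of 0.61 (0.50 without the 5 calves). As a whole it was highest in HI calf 2120 and MOD calves 2551 and 1689, the calves in which block 3 was lowest. In calf 1689 the interferon genes were not high, with MX1 at -0.95, ISG15 at -0.40 and Ifi27 at 0.11 SDs from the MOD mean. All 108 correlations between a gene of block 2 and a gene of block 3 were negative (mean r -0.65, and -0.51 without the 5 calves). FAM173A and GABRB2 had r = -0.95, the lowest of all pairs, and -0.93 without the 5 calves. The 3 calves had the lowest normalisation factors and the most POMC and CHGA, as given above, and the part of these in blocks 2 and 3 was not tested. When the 5 calves were left out and the genes grouped again, the block nearest to block 2 had 6 genes, 5 of them from block 2 (ISG15, Ifi27, MX1, NKX2-8 and RPS23, with HLA-B), while the block nearest to block 3 shared 8 of its 9 genes and that nearest to block 1 shared 11 of 14.

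Block 6 was made of FKBP5, PDK4 and ARRDC2 and nothing else, with a mean r of 0.79, and 0.84 without the 5 calves. The same 3 genes formed a block without the 5 calves, with Spearman's rho and at mean r of 0.4 and 0.6. It was highest in HI calf 1089, MOD calf 911 and MOD calf 3622. Block 4, with ANGPTL7, ENTR1, MSX1 and VCAM1, was highest in MOD calves 1395, 2537 and 2532 and had a mean r of 0.54, and all 56 of its correlations with block 1 were negative (mean r -0.46). HP, the acute-phase protein haptoglobin, was at 29.2 CPM in calf 1395, the second highest value, against a median of 2.31 CPM. ORM1, the other acute-phase protein, was at 0 CPM in calf 1395, against a median of 0.895 CPM. The part of either in block 4 was not tested. Block 5 held ARHGEF16, C1QTNF1, KLK6 and PYGM, with a mean r of 0.58, which was 0.43 without the 5 calves. When the 5 calves were left out, no block held more than 2 of the 4 genes of block 5 or more than 1 of the 4 genes of block 4.

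The diet values of the genes were summarised by block. The median log2 fold change was 0.39 in block 1 (12 of 14 genes above 0), 0.0937 in block 2 (7 of 12), 0.38 in block 3 (8 of 9), 0.21 in block 4 (4 of 4), 0.21 in block 5 (4 of 4) and -0.28 in block 6 (0 of 3). Genes of a block share the calves that set its level, so that these counts are not separate observations.

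**Figure D4:**
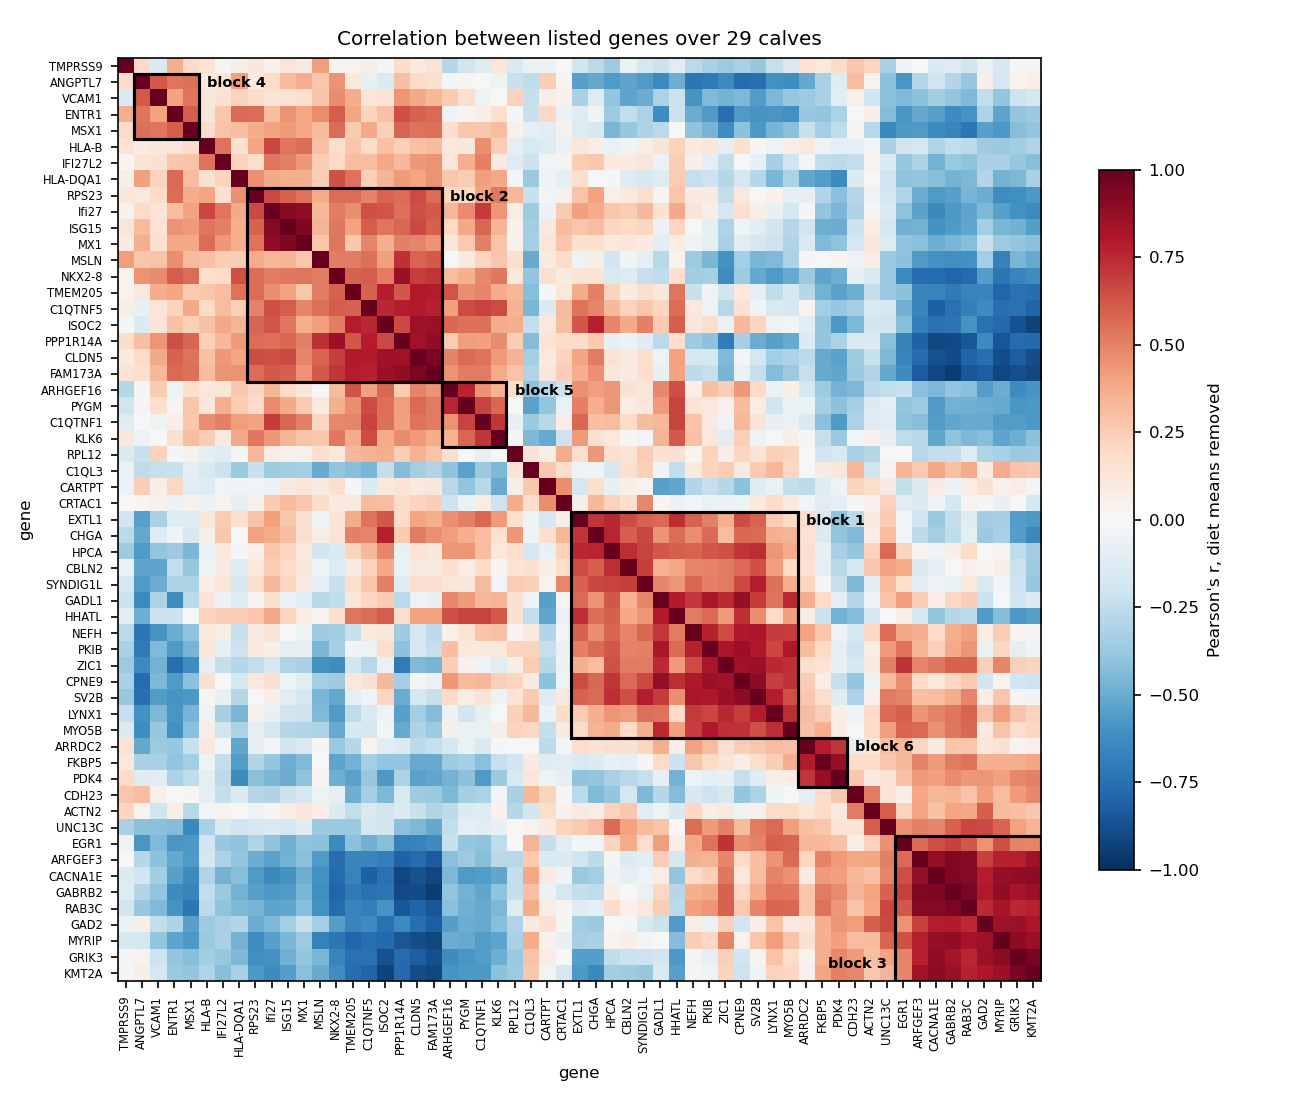
Pearson's r between the 57 genes over 29 calves with diet means removed (red, positive; blue, negative), ordered by average linkage, with the 6 blocks outlined. Blocks 2 and 3 are each red within and blue against each other, with a mean r of -0.65 between them, and block 1 shows both signs against block 3.

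**Figure D5:**
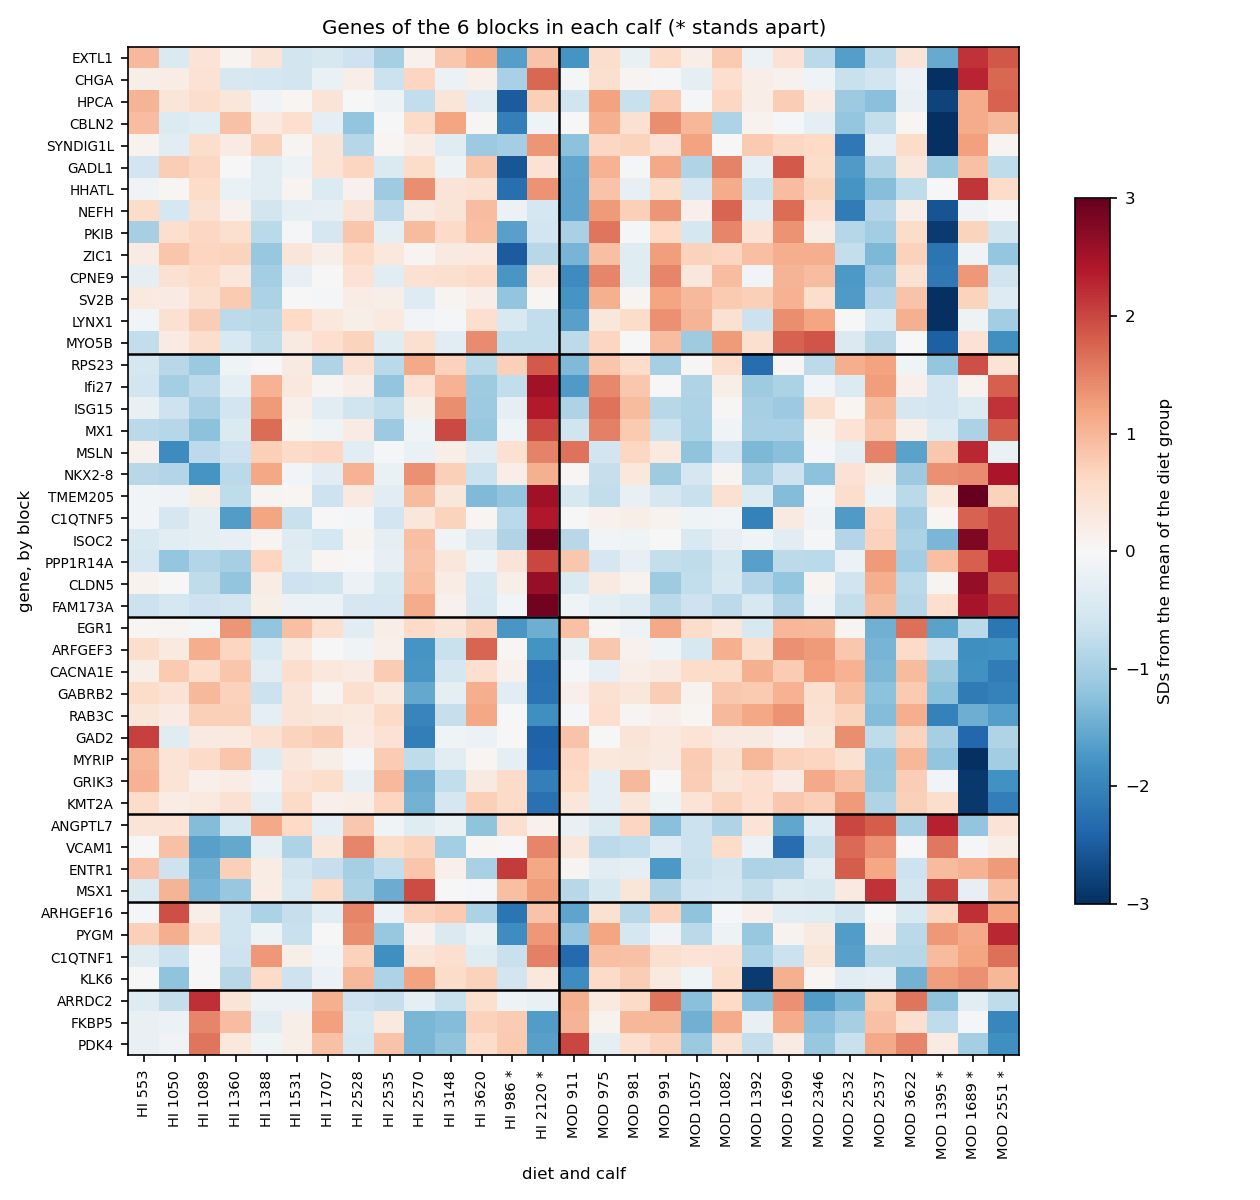
Level of the 46 genes of the 6 blocks (rows, blocks 1 to 6 from the top, split by lines) in each calf (columns, HI left and MOD right, with the calves that stood apart marked by an asterisk), in SDs from the mean of the diet group. Block 1 is blue in MOD calf 1395, and block 6 is red in HI calf 1089 and MOD calf 911. Block 2 is mostly red and block 3 blue in HI calf 2120 and MOD calves 1689 and 2551. In calf 1689, ISG15 and MX1 of block 2 are blue.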

How the data were processed

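Per the labels and the study's methods, libraries were stranded TruSeq preparations of polyA RNA. The submitters' processing notes name FastQC 0.11.8, cutadapt 2.6, STAR 2.6.1, R 3.4, edgeR 3.5 and genome build UMD3.1. What the authors deposited is a normalised signal (CPM) per gene and calf, made from gene counts and TMM library sizes and not filtered for low levels. The number of reads was recovered by dividing each column by the value of 1 read, and 100% of values were whole within 0.001 reads. All columns were assigned to a calf by its number in the labels.

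Genes that exceeded 1 CPM in 14 calves or more were tested with limma 3.58.1 (R 4.3.3, trend) on log2(normalised CPM + 1), a scale that understates the change of low genes. Alternatives used edgeR 4.0.16 and DESeq2 1.42.0 on recovered reads. The tests were tested on simulated data first. Distances between calves followed plotMDS with 500 genes per pair, and a calf stood apart above the median plus 3 median absolute deviations. Correlations used 100000 permutations (scipy 1.17.1). Adjusted p-values are by Benjamini-Hochberg, and the threshold for the 18 pairs was 0.05. Labels do not say more of the replicates than that each is a calf, so that p-values measure the spread between calves. Per the paper, calves were allotted in blocks of age, body weight, farm and sire, and the labels do not give these blocks. The paper also states that pens after weaning followed the treatment, so that pen and diet cannot be told apart.

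The members, groups and pairs were chosen with earlier results of these data known. Each member is named in its group, except 1 whose own values are not reported here; full values are given for the 10 with the highest median CPM, the 8 with the largest log2 fold changes, the 6 with the largest SDs, the genes of the fixed pairs and the 3 genes with the highest mean r in each block. RefSeq names (ARS-UCD2.0) matched 64 of the 68 symbols and were used for names and neighbours. Levels per coding length and promoter motifs were planned and not run, because no sequence or coding length of the files' build was used here. The ARC libraries were not analysed here.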

Additional observations from a re-analysis of the deposited data

How the results depend on the processing

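No gene of the list was called under any alternative or with any calf left out, and the median log2 fold change stayed between 0.15 and 0.26. Since almost no gene was called over all genes and the choice of genes used this contrast, the absence of calls in the list is no sign of stability. Over all genes, the exact test called 1 gene and DESeq2 2.

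Among the fixed pairs, changes of sign occurred in pairs that had not passed. By Spearman's rho, CBLN2 and C1QL3 had -0.0271 and CHGA and CARTPT -0.168. Without the calves that stood apart, r was -0.113 for HLA-DQA1 and HLA-DQB1, 0.109 for MYL2 and ACTN2 and -0.458 for CHGA and CARTPT. Without the 2 farthest calves it was -0.0206 for CBLN2 and C1QL3, -0.0104 for HLA-DQA1 and HLA-DQB1, -0.135 for CHGA and CARTPT and 0.219 for LHX6 and ZIC1. Within HI calves it was -0.133 for HLA-DQA1 and HLA-DQB1, -0.0147 for MSLN and ALDH1A2, -0.607 for CHGA and CARTPT and 0.348 for LHX6 and ZIC1, and within MOD calves -0.0754 for HLA-B and HLA-DQA1 and 0.0170 for MYL2 and ACTN2. The causes were not tested. Low reads limit the genes that did not pass the filter, and prefixes of 5 or 6 calves limit what can be said within one of them. No paired or blocked analysis was possible because the diets share no calf and the labels give neither pairs nor the study's blocks.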
